A study of Homo sapiens with 9 samples.

Results

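GPX6, MFSD1, HPS1, MAEA, CREB3L4 and ADCY5 are 6 protein-coding genes whose RNA was measured in PC9 cells, a human lung adenocarcinoma line, after knockdown of ALKBH5. They were chosen by their methylation level, the share of an RNA's signal that lay in the fraction bound by an antibody against m6A. The genes were selected on a level over 1.5 times that of the control siRNA, with an unadjusted P under 0.05, with each of 2 siRNAs against ALKBH5. Each gene is read by 1 probe, so they are 6 of 60541 RNA probes on the array. The files give these probes no gene name, and the names rest on an earlier match of the levels to values printed by the study, which could not be checked against probe sequences.

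Cells received 15 nM of siALKBH5#1, siALKBH5#3 or the control siRNA siNC and were collected after 96 h, with 3 arrays for each group and 9 in all. RNA was divided by the antibody into a bound fraction (IP, red dye) and the unbound remainder (Sup, green dye), and both were read on the same array. No array had the dyes swapped, so fraction and dye cannot be told apart. The question for these genes is what their Sup and their IP signals each did behind the higher level.

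ALKBH5 removes the methyl group of m6A, an adenosine mark written on messenger RNA by the METTL3 and METTL14 methyltransferase, and reader proteins of the YTH family bind the mark and affect how long an RNA lasts and how well it is translated. The 6 genes do unlike work: GPX6 belongs to the glutathione peroxidases, MFSD1 and HPS1 serve lysosomes and related organelles, MAEA is part of a ubiquitin ligase, and CREB3L4 and ADCY5 act in transcription and in cyclic AMP signalling.

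Only 50 of the 60541 probes carry an accession that leads to a gene symbol. Among them were 0 of 18 genes of the m6A machinery, ALKBH5 included, 0 of 35 partners and relatives of the 6 genes, and 0 of 17 cell type markers. The depth of the knockdown, the identity of the cells and the behaviour of the genes' partners could therefore not be read.

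One array stood apart. On siALKBH5#1 replicate 3 the mean Sup signal of the spike-in RNAs was 12.16 on the log2 scale, against 8.57 to 10.50 on the other 8 arrays, and 12891 spots had an uneven background, against 22 to 3445. IP had to be brighter there to be seen: the weakest spot marked well above background had a signal of 22.0, against 8.47 to 13.5 elsewhere. The scan headers put siALKBH5#1 replicate 1 in a scan of its own and the other 8 arrays together in another. Changes with siALKBH5#1 are therefore given with all 3 arrays, without replicate 3, and without replicate 1, which leaves arrays of a single scan.

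Sup of all 6 genes was well above background on all 9 arrays, 54 of 54 values, with a median measurement error of 10.5% by the scanner software. IP was not: it was well above background in 1 of 18 values with siNC, 7 of 18 with siALKBH5#1 and 14 of 18 with siALKBH5#3. Over all RNA probes the share of IP above background was 40.8% to 50.9% on the siNC arrays, 37.9% to 47.2% with siALKBH5#1 and 44.4% to 57.2% with siALKBH5#3. Among the 500 probes of equal Sup signal it had a median over genes and arrays of 63.1%, 44.9% and 72.2%. The selection on a higher level than with siNC favours genes seen less often in siNC IP, so nothing is read from these counts. The software's error of the IP signal had a median of 43.2% with siNC, 23.4% with siALKBH5#1 and 17.7% with siALKBH5#3. For 5 of the genes no siNC array showed IP above background, so a fold change of IP against siNC has no measured base for them.

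Sup is given below as the log2 signal minus the median Sup of all RNAs on the same array, and a probe is compared only with itself across arrays. IP is given as the unscaled signal, since arrays differ in brightness, and then as a percentile among the 500 probes nearest in Sup signal on the same array, where 50 is the middle. In a bulk sample, fewer cells that hold an RNA and less of it per cell cannot be told apart. Sup and IP both enter the level that chose the genes, so their places against siNC below are descriptions.

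GPX6 encodes a glutathione peroxidase, an enzyme family that reduces peroxides with glutathione. Its Sup stood at 0.81, 0.63 and 0.27 on siNC replicates 1, 2 and 3, at 0.58, -0.03 and -0.05 with siALKBH5#1, and at 0.40, 0.36 and 0.28 with siALKBH5#3. With siALKBH5#1 replicates 2 and 3 lay under all siNC arrays and replicate 1 lay among them, while with siALKBH5#3 all arrays lay within the siNC range. The mean Sup was 0.57 ± 0.27 (SD, n = 3) with siNC, 0.17 ± 0.36 with siALKBH5#1 and 0.35 ± 0.06 with siALKBH5#3. IP of GPX6 was 5.91, 5.43 and 4.31 with siNC, 10.8, 6.76 and 16.0 with siALKBH5#1, and 15.5, 20.3 and 8.60 with siALKBH5#3. It was above background on siALKBH5#1 replicate 1 and siALKBH5#3 replicates 1 and 2 and on no siNC array. Its percentile among probes of equal Sup was 2.0, 1.0 and 0.0 with siNC, 6.4, 26.8 and 5.2 with siALKBH5#1, and 8.8, 2.6 and 7.4 with siALKBH5#3. GPX6 thus sat in the lowest part of its neighbours on every array but siALKBH5#1 replicate 2, with the siRNA arrays above those of siNC. Of those neighbours, 93.2% to 99.2% had IP above background on the siNC arrays, 61.8% to 97.2% with siALKBH5#1 and 89.8% to 100% with siALKBH5#3.

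MFSD1 encodes a lysosomal membrane transporter of the major facilitator superfamily. Sup was 0.18, -0.40 and -0.56 with siNC, 0.15, -0.10 and -0.65 with siALKBH5#1, and -0.18, -0.20 and -0.60 with siALKBH5#3. The 3 groups overlapped, and replicate 3 was the lowest array of each. Their means were -0.26 ± 0.39, -0.20 ± 0.41 and -0.32 ± 0.24 (SD, n = 3), so the spread within a group exceeded the distance between groups. IP was 2.97, 2.65 and 5.17 with siNC, 10.1, 7.26 and 10.7 with siALKBH5#1, and 12.0, 16.1 and 3.40 with siALKBH5#3. The last of these lay between siNC values, and the 3 values above background were siALKBH5#1 replicate 1 and siALKBH5#3 replicates 1 and 2. Among probes of equal Sup, MFSD1 was at percentile 1.4, 1.4 and 1.0 with siNC, 12.4, 30.0 and 8.6 with siALKBH5#1, and 14.8, 5.6 and 5.0 with siALKBH5#3. As for GPX6, IP of MFSD1 was low beside probes of equal Sup in every group, with the siRNA arrays above those of siNC.

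HPS1 encodes a subunit of BLOC-3, a complex needed to form lysosome-related organelles such as melanosomes and platelet dense granules. Its Sup varied most among the siNC arrays, at -0.58, -1.59 and -1.95, while siALKBH5#1 gave -1.15, -1.46 and -1.88, and siALKBH5#3 gave -1.26, -1.24 and -1.53. All 6 siRNA arrays fell between the highest and the lowest siNC array, and the means were -1.37 ± 0.71, -1.50 ± 0.36 and -1.34 ± 0.16 (SD, n = 3). IP was 3.95, 0.224 and 7.01 with siNC, 10.3, 6.60 and 10.3 with siALKBH5#1, and 11.4, 19.2 and 9.87 with siALKBH5#3. With siALKBH5#3 it was above background on all 3 arrays, with siALKBH5#1 on replicate 1, and with siNC on none. Its percentile was 16.6, 5.2 and 36.8 with siNC, 66.6, 80.6 and 57.8 with siALKBH5#1, and 60.2, 60.2 and 72.8 with siALKBH5#3. HPS1 thus lay under the middle of its neighbours on each siNC array and over it on each siRNA array. Of its neighbours, 44.6%, 14.6% and 25.6% were above background on the siNC arrays, 43.0%, 9.80% and 13.0% with siALKBH5#1, and 46.6%, 80.8% and 27.6% with siALKBH5#3. The neighbours were thus brightest on siALKBH5#3 replicate 2, where IP of HPS1 was brightest too.

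MAEA encodes a RING subunit of the CTLH complex, an E3 ubiquitin ligase. Its Sup was -0.82, -0.88 and -1.14 with siNC, -1.19, -1.50 and -1.15 with siALKBH5#1, and -1.38, -1.25 and -1.25 with siALKBH5#3. Every siRNA array lay under every siNC array, by a narrow margin for siALKBH5#1 replicate 3. The means were -0.95 ± 0.17 with siNC, -1.28 ± 0.19 with siALKBH5#1 and -1.29 ± 0.07 with siALKBH5#3 (SD, n = 3). IP was 2.53, 6.86 and 9.19 with siNC, 12.6, 8.02 and 20.7 with siALKBH5#1, and 10.8, 25.7 and 14.1 with siALKBH5#3. As for HPS1, it was above background on the 3 siALKBH5#3 arrays and on siALKBH5#1 replicate 1. The percentile of MAEA was 10.4, 33.8 and 12.6 with siNC, 75, 85.4 and 64.2 with siALKBH5#1, and 61.2, 76.6 and 77.2 with siALKBH5#3. The siNC arrays put it in the lower part of its neighbours and the siRNA arrays in the upper part.

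CREB3L4 encodes a transcription factor of the CREB3 family that is anchored in the endoplasmic reticulum membrane until it is cleaved. Its Sup was -1.18, -1.20 and -1.15 with siNC, -1.50, -1.55 and -1.26 with siALKBH5#1, and -1.69, -1.75 and -1.48 with siALKBH5#3. The siNC arrays lay close together and above all siRNA arrays, with siALKBH5#1 replicate 3 the nearest to them. The means were -1.18 ± 0.03, -1.44 ± 0.15 and -1.64 ± 0.14 (SD, n = 3). IP was 2.58, 5.21 and 15.1 with siNC, 10.1, 8.16 and 34.9 with siALKBH5#1, and 13.6, 19.9 and 9.01 with siALKBH5#3. CREB3L4 was the one gene with IP above background on a siNC array, replicate 3, and the signals of siNC and siRNA arrays overlapped. Its percentile among probes of equal Sup was 25.8, 32.6 and 44.6 with siNC, 73.2, 87.0 and 89.4 with siALKBH5#1, and 84.8, 83.8 and 66.4 with siALKBH5#3. On that scale, set within each array, the siRNA arrays lay above the siNC arrays. So did those of 6.63% of all RNAs with siALKBH5#1 and 6.62% with siALKBH5#3. The selection used this contrast, so nothing is read from the separation.

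ADCY5 encodes an adenylyl cyclase, a membrane enzyme that makes cyclic AMP. Sup was -0.25, -0.47 and -0.69 with siNC, -0.55, -0.55 and -0.86 with siALKBH5#1, and -0.58, -0.54 and -0.79 with siALKBH5#3. The siRNA arrays lay toward the low end of the siNC range or under it, and the groups overlapped. Means were -0.47 ± 0.22, -0.65 ± 0.18 and -0.64 ± 0.13 (SD, n = 3). IP was 4.99, 4.47 and 9.65 with siNC, 15.2, 5.44 and 18.1 with siALKBH5#1, and 14.6, 19.7 and 8.33 with siALKBH5#3. It was above background on siALKBH5#1 replicate 1 and on siALKBH5#3 replicates 1 and 2. ADCY5 was at percentile 13.2, 6.6 and 5.2 with siNC, 62.2, 33.8 and 39.4 with siALKBH5#1, and 41.4, 24.0 and 31.6 with siALKBH5#3. The siNC arrays put it near the bottom of its neighbours and the siRNA arrays at 24.0 or higher, over the middle on siALKBH5#1 replicate 1 alone.

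**Figure D1:**
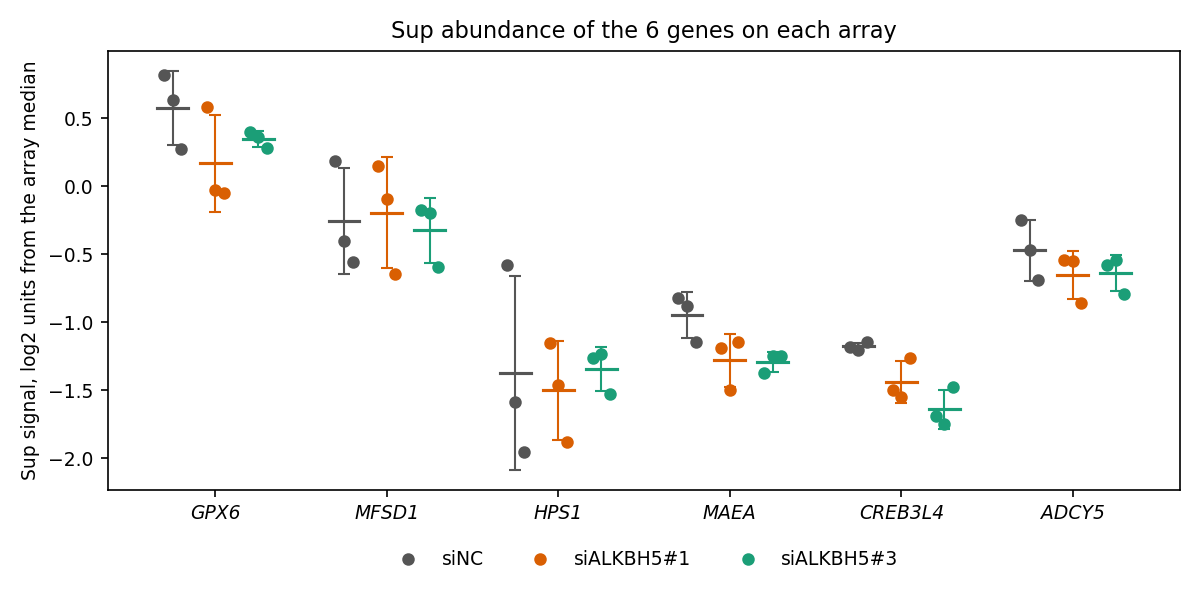
Sup of the 6 genes on each of the 9 arrays, as log2 signal minus the array's median Sup (y axis), for each gene (x axis) and group (colours); lines are means and bars the SD of 3 arrays. MAEA and CREB3L4 are the genes whose siRNA arrays all lie under the siNC arrays, as for 5.22% of all RNAs with siALKBH5#1 and 12.2% with siALKBH5#3, while the other 4 overlap.

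**Figure D2:**
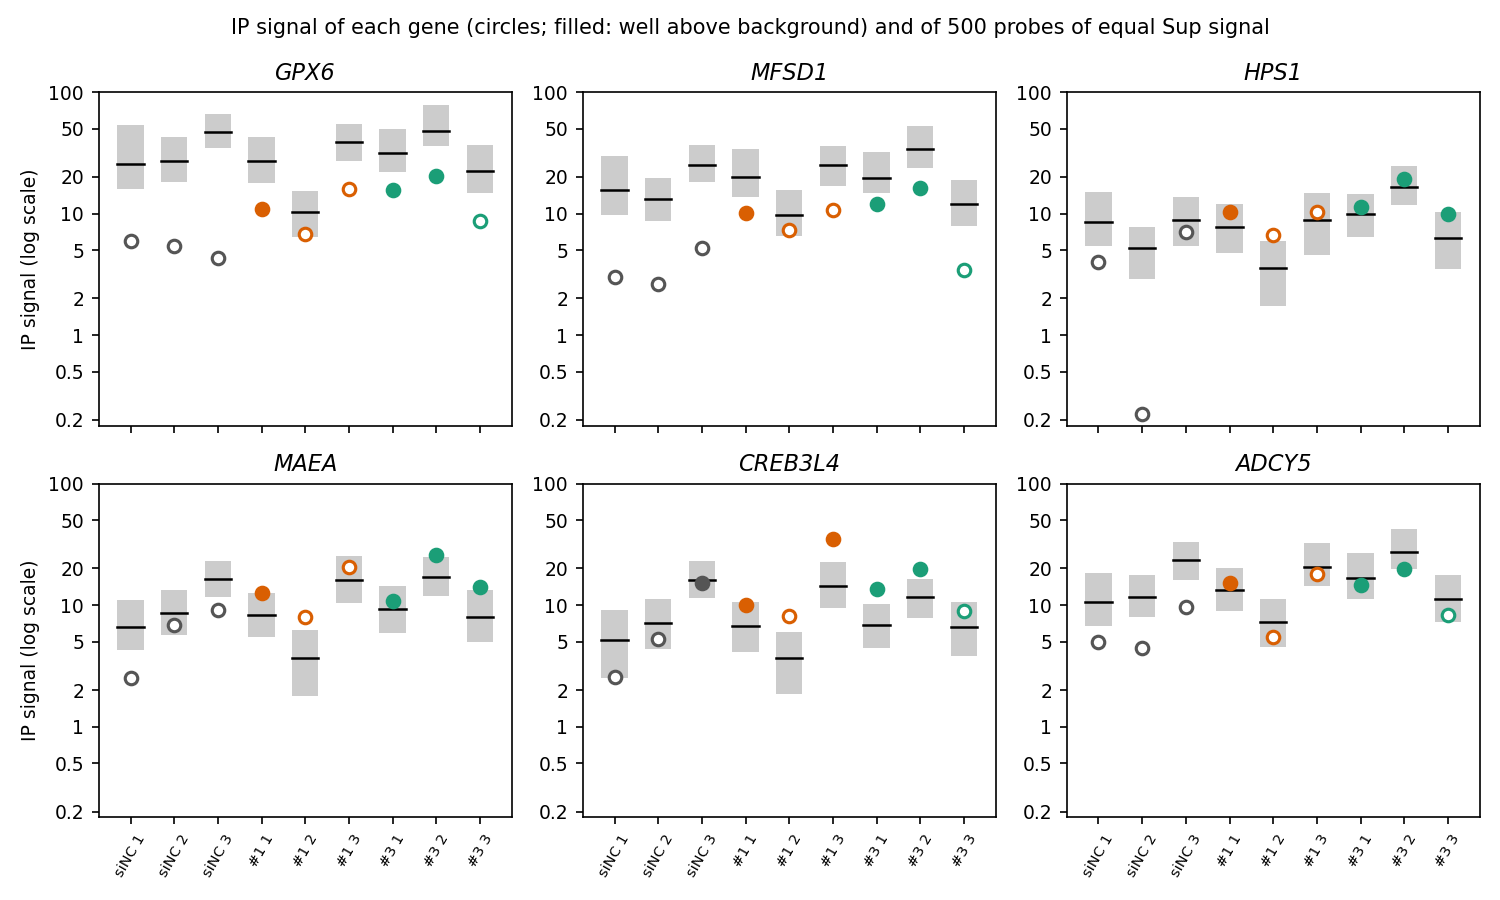
IP signal of each gene on each array (circles, log axis; filled where well above background) beside the median and quartiles of the 500 probes of equal Sup signal (bars). Filled are 1 of 18 siNC circles, 7 of 18 with siALKBH5#1 and 14 of 18 with siALKBH5#3, where a median of 63.1%, 44.9% and 72.2% of the equal-Sup probes were above background, in the contrast the genes were selected on.

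**Figure D3:**
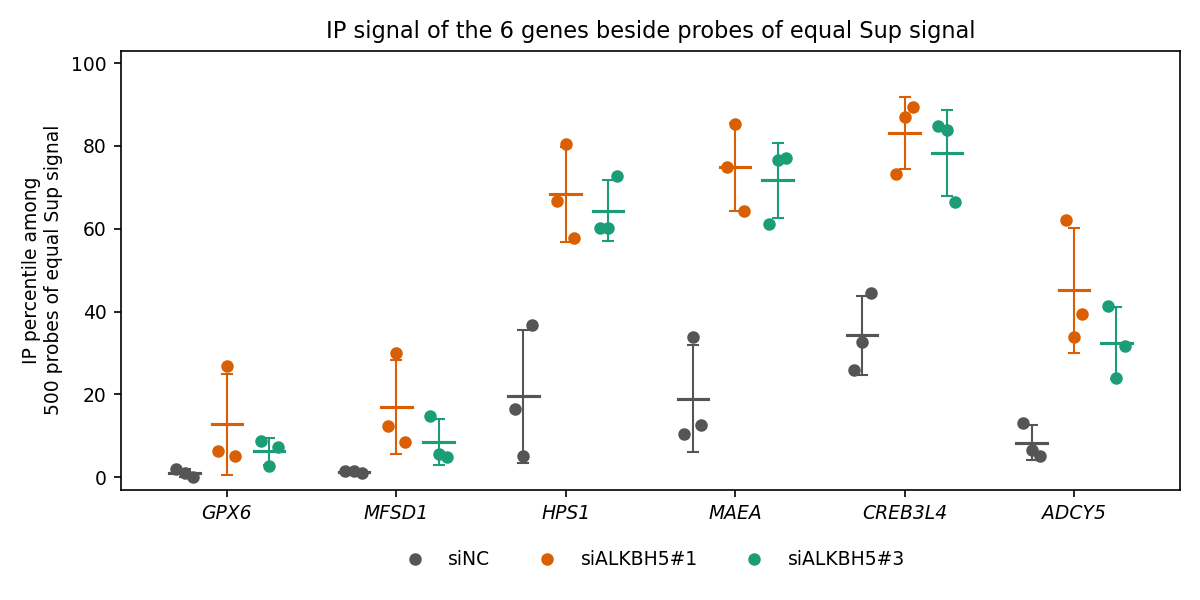
Percentile of each gene's IP among the 500 probes of equal Sup signal (y axis) on each array, for each gene (x axis) and group (colours); lines are means and bars the SD of 3 arrays. For all 6 genes the siRNA arrays lie above the siNC arrays, as for 6.63% of all RNAs with siALKBH5#1 and 6.62% with siALKBH5#3, in the contrast the genes were selected on, and 22 of the 54 IP values behind the points were above background.

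Across the 6 genes, Sup was under that of every siNC array on all 3 arrays for 2 genes, MAEA and CREB3L4, with siALKBH5#1, where 5.22% of all RNAs were so placed, and for the same 2 genes with siALKBH5#3, where 12.2% were. The IP percentile lay over that of every siNC array for all 6 genes with siALKBH5#1, against 6.63% of all RNAs, and for all 6 with siALKBH5#3, against 6.62%. The selection used these contrasts, so nothing is read from the counts. Most of these percentiles rest on dim signals, since 22 of the 54 IP values were above background.

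The size of the Sup changes was then set against all RNAs. Sup was scaled by spike-in RNAs and fitted with limma for the 39893 RNA probes well above background on all 9 arrays, and all 6 genes were among them. With this scaling the log2 change of the median RNA was -0.15 for siALKBH5#1 and 0.12 for siALKBH5#3, a shift that centring on the array median largely takes away, so changes are given relative to it. Standard errors of the spike-in scaled changes of the 6 genes were 0.55 to 0.74, and 0.15 to 0.35 with centring on the array median. Both siRNAs were compared with the same siNC arrays, so the pairs of values below share their controls.

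CREB3L4 changed by -0.30 with siALKBH5#1 and -0.42 with siALKBH5#3 relative to the median RNA, rank 32937 and 36544 from the top of 39893, or percentile 17.4 and 8.39. MAEA changed by -0.37 and -0.30, rank 35007 and 33651, percentile 12.2 and 15.6. With the software's processed signals CREB3L4 was at percentile 14.3 and 7.63, but MAEA changed by -0.14 and -0.08, percentile 30.8 and 39.3. With normexp background correction CREB3L4 changed by -0.07 and -0.13, percentile 28.0 and 17.9. With quantile normalisation it changed by -0.15 and -0.40, percentile 28.4 and 9.78. The places of both genes among all RNAs thus depended on the signal used. GPX6 changed by -0.45 and -0.19, rank 36597 and 29313, percentile 8.26 and 26.5, and without siALKBH5#1 replicate 3 the first was -0.23, percentile 25.03. ADCY5 changed by -0.22 and -0.13, rank 30154 and 26474, percentile 24.4 and 33.6. HPS1, at -0.17 and 0.07 (rank 27836 and 16328, percentile 30.2 and 59.1), and MFSD1, at 0.02 and -0.03 (rank 18857 and 21325, percentile 52.7 and 46.5), lay nearer the middle. Sup was under the median change for 5 of the 6 genes with each siRNA, MFSD1 being the exception with siALKBH5#1 and HPS1 with siALKBH5#3, and Sup is part of the level that chose the genes, so nothing is read from this count. Differences and standard errors on the same scale follow. With spike-in scaling, CREB3L4 differed from siNC by -0.45 (SE 0.55) and -0.30 (SE 0.55), MAEA by -0.52 (SE 0.57) and -0.18 (SE 0.57), and GPX6 by -0.60 (SE 0.64) and -0.06 (SE 0.64). With centring on the array median they were -0.26 (SE 0.15) and -0.46 (SE 0.15) for CREB3L4, -0.33 (SE 0.17) and -0.34 (SE 0.17) for MAEA, and -0.41 (SE 0.22) and -0.23 (SE 0.22) for GPX6. The differences of these 3 genes were thus within 1 SE on the first scale and larger than 1 SE on the other. By limma, 0 of 39893 RNAs (0%) were called against siNC with either siRNA, with 170 at an unadjusted p under 0.05 for siALKBH5#1 and 442 for siALKBH5#3. Without siALKBH5#1 replicate 3, limma called 221 for siALKBH5#1 and 192 for siALKBH5#3, and with the replicate number as a block 4 and 16. After centring on the array median, 5 (0.0125%) and 112 (0.281%) were called, and 0 and 0 with the replicate number as a block as well. Without the block these counts also hung on single arrays. They were 31 and 680 without siALKBH5#1 replicate 3. With any other array left out they were 0 or 1 for siALKBH5#1 and 0 for siALKBH5#3, or 38 without siALKBH5#1 replicate 2. No gene of the 6 was called in any of these fits.

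The array that stood apart weighed on the siALKBH5#1 values. Without replicate 3, the changes were -0.23 for GPX6, 0.35 for MFSD1, 0.13 for HPS1, -0.33 for MAEA, -0.28 for CREB3L4 and -0.01 for ADCY5. HPS1 thus crossed the median, MFSD1 moved to percentile 83.3, and MAEA and CREB3L4 changed little. Without replicate 1, and so within the larger scan, they were -0.72, -0.22, -0.40, -0.48, -0.33 and -0.34 in the same order of genes. MAEA was at percentile 12.2 with all arrays, 18 without replicate 3 and 11.8 without replicate 1, and CREB3L4 at 17.4, 21.4 and 20.5. The control arrays weighed on both siRNAs. Without siNC replicate 1, HPS1 changed by 0.28 with siALKBH5#1 (percentile 82.3) and 0.51 with siALKBH5#3 (percentile 92.4), and MFSD1 by 0.29 (83.2) and 0.24 (77.1). GPX6 was then at -0.28 and -0.02 and ADCY5 at -0.06 and 0.03, so Sup was under the median change for 3 of the 6 genes with siALKBH5#3. Without siNC replicate 3, HPS1 was at -0.50 and -0.27 and MFSD1 at -0.17 and -0.23, and without siNC replicate 2 at -0.29 and -0.05 and at -0.06 and -0.11. The position of HPS1 and MFSD1 among all RNAs thus depended on which control arrays were kept. MAEA and CREB3L4 lay under the median RNA with any 1 array left out. Sup against siNC is part of the level that chose the genes, so nothing is read from that.

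**Figure D4:**
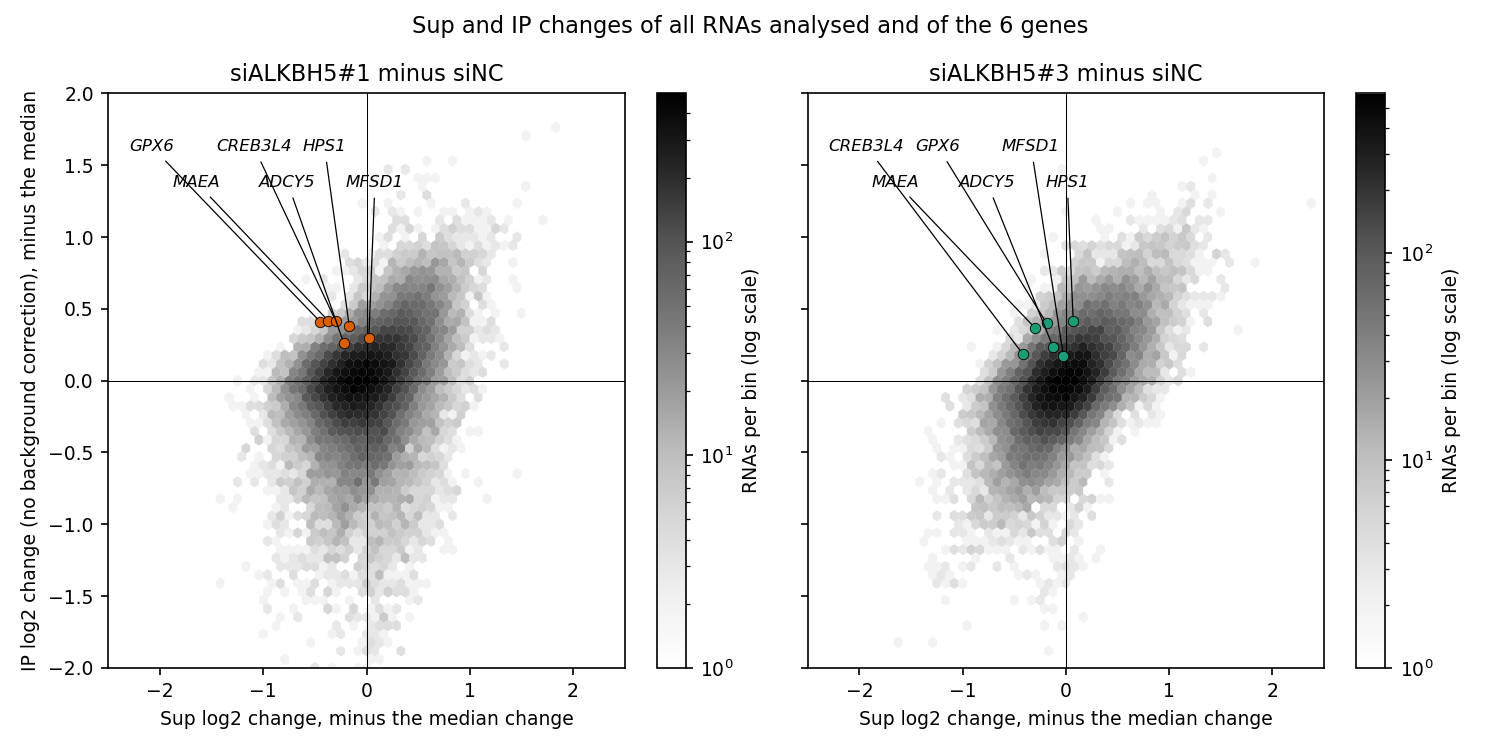
Change of Sup (x axis) and of IP without background correction (y axis) against siNC, log2 relative to the median RNA, for all RNAs analysed (grey bins, darker where there are more) and the 6 genes (points), with each siRNA. The 6 genes, selected on this contrast, lie above 0 in IP in both panels, by 0.18 to 0.42, and 5 of 6 lie under 0 in Sup.

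For the rank of the IP change, the IP signal was taken without background correction, which keeps every spot above 0. On this scale the change of GPX6 relative to the median RNA was 0.40 with siALKBH5#1, rank 3591 of 39807 and percentile 91.0, and 0.40 with siALKBH5#3, rank 2990 of 39744 and percentile 92.5. HPS1 changed by 0.37 and 0.42 (rank 4070 and 2768, percentile 89.8 and 93.0) and MAEA by 0.41 and 0.37 (rank 3487 and 3485, percentile 91.2 with each). For these 3 genes, as for MFSD1 and ADCY5, IP was above background on none of the 3 siNC arrays. CREB3L4 changed by 0.41 and 0.19 (rank 3470 and 8491, percentile 91.3 and 78.6), MFSD1 by 0.29 and 0.18 (rank 5699 and 9125, percentile 85.7 and 77.0) and ADCY5 by 0.25 and 0.24 (rank 6711 and 6585, percentile 83.1 and 83.4). The IP change was above the median RNA for all 6 genes with each siRNA, but IP against siNC is part of the level that chose them, so nothing is read from these ranks. With siALKBH5#1 the 6 percentiles ran from 93.1 to 99.1 without replicate 3 and from 64.1 to 86.7 without replicate 1, and without siNC replicate 3 those of both siRNAs ran from 50.8 to 81.3. They also moved with the signal used: over the 6 genes and both siRNAs they ran from 77.0 to 93.0 here, from 95.7 to 99.7 with the software's processed signal, and from 69.1 to 85.8 with normexp background correction. The ranks thus rest in part on which arrays are kept and on the signal. Local background light is part of this signal and draws log2 changes toward 0.

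A fold of IP could be given only as a bound, where all 3 arrays of an siRNA were above background, which held for MAEA and HPS1 with siALKBH5#3. Against the weakest signal seen above background on each siNC array, MAEA was at least 1.59-fold higher with spike-in scaling and at least 1.18-fold with array median scaling. HPS1 was at least 1.30-fold higher with spike-in scaling, and had no bound above 1 with array median scaling. These bounds hung on 1 control array: without siNC replicate 3 the spike-in scaled bound was 1.01 for MAEA and 0.826 for HPS1, and that of MAEA with array median scaling was 0.986. The genes were selected on this contrast, so the bounds are a description. The other 4 genes allow no bound, since IP was at background on at least 1 array of each siRNA.

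The levels that chose the genes can be split into their parts. The deposited level, as log2 of its odds, equals the log2 IP signal minus the log2 Sup signal of the software's dye-normalised values plus a constant of each array; both signals are taken here relative to their array median. For GPX6 the change of 1.49 with siALKBH5#1 held 1.24 from IP and 0.44 from Sup, and the 1.49 with siALKBH5#3 held 1.26 and 0.26. CREB3L4 had the largest Sup part, 0.51 of a change of 1.37 with siALKBH5#3, beside 0.89 from IP, and with siALKBH5#1 0.29 and 1.25 of 1.34. MFSD1 with siALKBH5#1 and HPS1 with siALKBH5#3 had Sup parts under 0, -0.06 and -0.02. These signs hung on the control arrays, since the 2 parts were 0.08 and 0.27 without siNC replicate 3. Without siNC replicate 1 they were -0.30 and -0.40. The Sup part of HPS1 with siALKBH5#1 was 0.09, and -0.28 without siNC replicate 1. MAEA had Sup parts of 0.12 and 0.16, and ADCY5 0.12 and 0.14. The array constant gave -0.19 and -0.04. With siALKBH5#1 the Sup parts ran from -0.29 for MFSD1 to 0.36 for CREB3L4 without replicate 3, and from 0.12 for MFSD1 to 0.64 for GPX6 without replicate 1. Over the 6 genes and both siRNAs the IP part came to 0.88 to 1.57. The lowest value with 1 array left out was 0.59, for CREB3L4 with siALKBH5#3 without siNC replicate 1. The highest was 1.93, for MFSD1 with siALKBH5#1 without replicate 3. That of GPX6 was 0.71 and 0.73 without siNC replicate 3. The IP part was computed against siNC signals of which 1 of 18 was above background. The levels are also those the genes were selected on, so the sizes of the 2 parts were not compared. The software's error of those siNC signals ran from 20.5% to 100.3%.

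**Figure D5:**
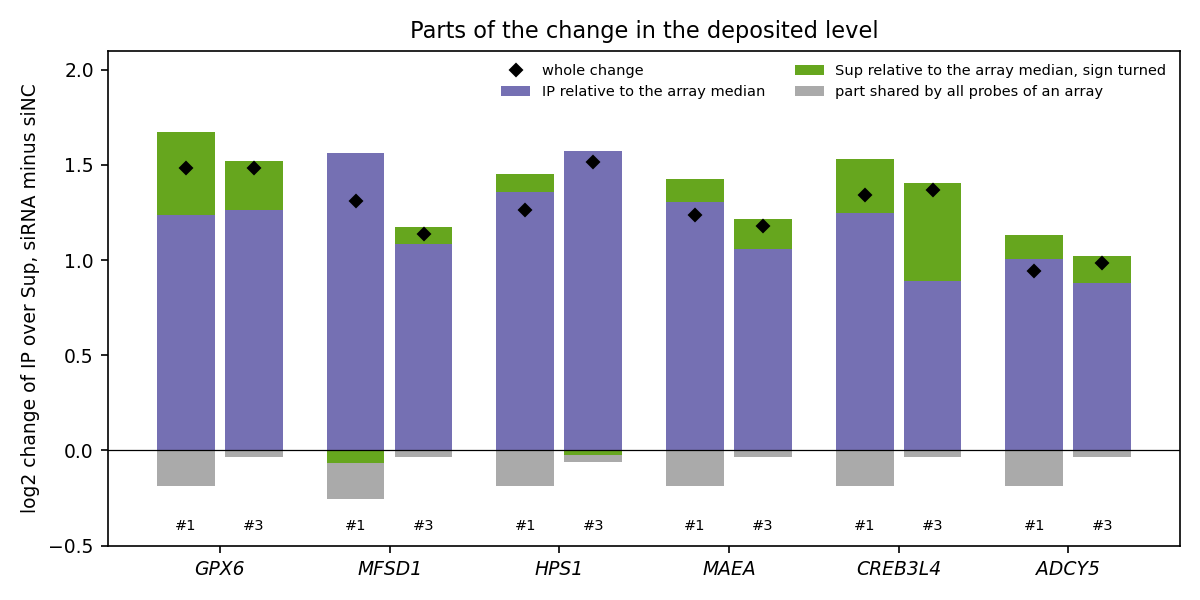
Change of the log2 odds of the deposited methylation level against siNC (y axis), split into the IP part, the Sup part with its sign turned and the constant of the arrays, with the whole change as a diamond, for each gene (x axis) and siRNA. The IP part is 0.88 to 1.57, and 0.59 to 1.93 with 1 array left out. It is taken against siNC signals of which 1 of 18 was above background, from the levels the genes were selected on, so its size has no measured base.

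The deposited levels themselves, which the selection used, are a description with no test. The level of GPX6 was 15.4% ± 5.45 (SD, n = 3) with siNC, 33.0% ± 7.33 with siALKBH5#1 and 32.8% ± 3.96 with siALKBH5#3, the largest folds of the 6 genes at 2.14 and 2.13. MFSD1 followed at 1.96 and 1.82 from a siNC level of 18.3% ± 0.956. HPS1 had folds of 1.62 and 1.75 from 33.2% ± 8.67, and MAEA 1.58 and 1.56 from 35.4% ± 7.64. The 4 genes with the higher siNC levels had the smaller folds. CREB3L4, the highest in siNC at 40.6% ± 8.68, had 1.55 and 1.56. ADCY5, from 30.0% ± 2.94, was just inside the threshold at 1.504 and 1.53, while just outside it 1 unnamed probe had 1.496 and 1.47 and another 1.47 and 1.80. These folds moved with single arrays. With siALKBH5#1, ADCY5 had 1.39 without replicate 1 and 1.56 without replicate 3, and CREB3L4 1.64 and 1.48, so each passed under the threshold without 1 array. HPS1 had 1.65 and 1.73, MAEA 1.57 and 1.66, GPX6 2.36 and 2.17, and MFSD1 2.09 and 2.06, and without replicate 2 HPS1 had 1.4996. With siALKBH5#3, ADCY5 had 1.44 without replicate 1. Control arrays did the same: without siNC replicate 1, CREB3L4 had 1.39 and 1.40 and MAEA 1.43 and 1.40 with siALKBH5#1 and siALKBH5#3. Without siNC replicate 2, ADCY5 had 1.44 and 1.46, and HPS1 had 1.45 with siALKBH5#1, and without siNC replicate 3 ADCY5 had 1.495 with siALKBH5#1. With any 1 array left out, 4 of the 6 genes thus passed under the fold threshold at least once, and GPX6 and MFSD1 did not. Only the fold is given with an array left out, so whether GPX6 and MFSD1 would still meet the P of the selection is not shown. Of 30601 RNA probes in the deposited levels, 11 passed the selection, of which 6 are these genes. Of the 11, 10 had no siNC array with IP above background, as did 913 (2.98%) of the 30601 and 9678 (24.3%) of the 39893 fitted RNAs. The selection on a higher level than with siNC favours probes unseen in siNC IP, so nothing is read from this count.

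The contrast of Sup between the siRNAs was not one the selection used, so it was tested, although the Sup of both groups entered the levels against siNC and the siNC arrays entered the fit's estimate of the spread. By limma with spike-in scaling, 0 of 39893 RNAs (0%) differed between siALKBH5#3 and siALKBH5#1 at an adjusted p under 0.05, with 859 at an unadjusted p under 0.05 and a smallest adjusted p of 0.581, and the test in the study's methods also found 0, with 978 unadjusted. A limma fit of the siRNA arrays alone called 0 as well, with 526 at an unadjusted p under 0.05. None of the 6 genes was called. The median RNA was 0.30 higher with siALKBH5#3. Relative to it, the differences were 0.24 for GPX6, -0.07 for MFSD1, 0.21 for HPS1, 0.05 for MAEA, -0.14 for CREB3L4 and 0.07 for ADCY5. Unscaled by that shift, the largest was that of GPX6, 0.53 (SE 0.64, limma adjusted p 0.989), and the smallest that of CREB3L4, 0.15 (SE 0.55, limma adjusted p 0.989). Spike-in scaling carried the wide scatter of the spike-in signals into every difference. With centring on the array median limma called 628 RNAs (1.57%), and from 7, without siALKBH5#3 replicate 1, to 1179, without siALKBH5#1 replicate 3, again with none of the 6 genes, whose smallest adjusted p was 0.683, for CREB3L4 at -0.20 (SE 0.15). Without siALKBH5#1 replicate 3 it called 396 RNAs with spike-in scaling, and under no setting run was one of the 6 genes called, the smallest adjusted p being 0.490. A Sup difference between the siRNAs was therefore not detectable for these genes, which does not show that their RNA was equally abundant.

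To place the genes beside others, Sup relative to the array median was correlated over the 9 arrays with the 47 fitted probes that could be named. This scale was chosen after spike-in scaled values gave a median Pearson r of 0.726 to 0.788 for the 6 genes. On the scale used, the median r was -0.40 for GPX6, -0.21 for MFSD1 and -0.38 for HPS1. It was -0.25 for MAEA, 0.08 for CREB3L4 and -0.29 for ADCY5. SERPIND1, which encodes the thrombin inhibitor heparin cofactor II, was nearest to GPX6 (r = 0.798), ADCY5 (0.776), HPS1 (0.719) and MAEA (0.690). MFSD1 was nearest to PLA2G4A (0.623), a phospholipase that frees arachidonic acid, and then to SERPIND1 (0.523). For CREB3L4 the nearest were DSCC1 (0.740), a factor of sister chromatid cohesion, and KIF20A (0.657), a mitotic kinesin. The next nearest were WRN for GPX6 (0.372), CENPQ for ADCY5 (0.399), PLA2G4A for HPS1 (0.382) and POLR2A for MAEA (0.381). The last of these depended on the scale, since with spike-in scaling POLR2A had an r of 0.034 with MAEA. So did KIF20A, whose spike-in scaled r with CREB3L4 was 0.706, under the median of 0.726 over the named probes for that gene. These correlations describe 9 arrays that share spike-in and scan differences and carry no test.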

How the data were processed

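The deposited array files hold a spot's brightness as an intensity in each dye, read with Agilent Feature Extraction 11.0.1.1. The value table deposited by the authors holds the methylation level, IP/(IP + Sup), as a fraction of signal per probe; it is printed here in percent. The members and gene lists were chosen with earlier results of these data known. Background-subtracted Sup signals were used on the log2 scale, control and outlier spots were left out, and repeated spots were averaged. Signals were scaled by the mean of 13 of 102 spike-in probes, those well above background in both dyes on all arrays. RNA probes with Sup well above background on all 9 arrays and at least 2 values in each group were fitted with limma 3.58.1 in R 4.3.3, as a model of the 3 groups with no replicate block, and p-values were adjusted over all probes by Benjamini-Hochberg. Contrasts with siNC are descriptions. No spot was saturated (0), and the number of arrays, 3 a group, limits the precision. The share of RNA probes well above background was 67.3% to 86.6% in Sup and 37.9% to 57.2% in IP. Genes named beside the 6 are the nearest by correlation, up to 2 for each. Alternatives covered scaling, background correction, filter, replicate or scan as a block, the test, the number of neighbours and each array left out. Combinations of array median centring with a design choice, processed IP ranked among probes of equal Sup, and levels and IP bounds with 1 array left out, were chosen after seeing the data. Tables and figures were made with Python 3.11.15, pandas 2.3.3, numpy 2.4.6, scipy 1.17.1 and matplotlib 3.10.9.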

Additional observations from a re-analysis of the deposited data

How the results depend on the processing

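The count of RNAs with a Sup difference between the siRNAs, 0 with spike-in scaling, depended on scaling and filter: it was 540 with processed signals, 628 with array median centring, 920 with quantile normalisation and 1 with a filter on a single group. With the replicate number as a block it was 39, and 19 with block and array median together. The numbers did not pair the arrays of the 2 siRNAs: same-number Sup profiles, as deviations from their group, correlated at -0.33, -0.18 and -0.47. Those of siNC and siALKBH5#3 correlated at -0.52, -0.15 and -0.34. Those of siNC and siALKBH5#1 correlated at 0.64, -0.06 and 0.61, where different numbers gave -0.63 to 0.49, so pairing is not decided there. With 1 array left out the count ran from 0 to 396. With array median centring, chosen together with these settings after seeing the data, it was 12 by the methods' test, 59, 188 and 1179 without siALKBH5#1 replicates 1, 2 and 3, 7, 32 and 26 without those of siALKBH5#3, and 473, 118 and 453 without those of siNC. Of the genes' differences between the siRNAs relative to the median RNA, none of which passed the test, 4 turned in sign. MFSD1 was 0.15 with the scan as a block, which is the same fit as without siALKBH5#1 replicate 1; MAEA was -0.052 with quantile normalisation and -0.0073 with normexp background correction; ADCY5 was -0.0079 with quantile normalisation. With 1 array left out, MFSD1 ran from -0.38 to 0.15, HPS1 from -0.062 to 0.43, MAEA from -0.046 to 0.14 and ADCY5 from -0.12 to 0.17. With array median centring as well, MFSD1 was 0.14 without siALKBH5#1 replicate 1 and 0.035 without siALKBH5#3 replicate 3, HPS1 -0.062 and ADCY5 -0.12 without siALKBH5#1 replicate 3, and MAEA -0.053 without siALKBH5#1 replicate 2 and -0.0056 without siALKBH5#3 replicate 3. Genes with Sup under the median change numbered 3 to 6 with siALKBH5#3 and 4 to 6 with siALKBH5#1. The 3 was reached without siNC replicate 1. IP was above the median change for 6 of 6 under all settings run. Without siNC replicate 3 the margin was 0.006 for MFSD1 with siALKBH5#3, percentile 50.8. Both signals against siNC are parts of the level that chose the genes, so nothing is read from these counts. Of the Sup changes against siNC, 161 alternative values with siALKBH5#1 and 158 with siALKBH5#3 moved by less than 1 SD, and 7 and 10 by more. Of the IP ranks, as percentiles, all 78 with siALKBH5#1 and 67 with siALKBH5#3 moved by less, and 11 with siALKBH5#3 by more. That yardstick is wide. With siALKBH5#1, ADCY5 was at percentile 83.1, and 62.0 without siNC replicate 3 and 97.1 with processed signals counted as unmoved. The counts therefore do not show that the values were stable. Of the IP percentiles among probes of equal Sup, 3 with siNC and 1 with siALKBH5#3 counted as moved. The other 21 and 23, and all 24 with siALKBH5#1, did not. Folds of the deposited levels with 1 array left out, added after seeing the data, ran from 1.39 to 2.41 with siALKBH5#1 and from 1.40 to 2.39 with siALKBH5#3. The causes were not tested. Signal over background limits IP, for which 22 of 54 values were above it.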
